A study of Mus musculus with 16 samples.

Results

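Ribosomal proteins and translation initiation factors were followed in the tibialis anterior, a fast hindlimb muscle, of mice given formoterol, an agonist of the β2-adrenoceptor. The set was chosen by gene symbol. A member is a mouse gene whose symbol starts with Rpl, Rps, Mrpl, Mrps or Eif and that has a kept probe, which means that at least 4 of the 16 arrays gave it a detection score of 1. Rplp0, Rpl13a and Eif4ebp1 were left out by the rule, and the brightest probe stood for each gene. This gave 119 genes of the 2386 that the kept probes could name. They comprised 62 cytosolic ribosomal proteins, 32 mitochondrial ribosomal proteins, 24 Eif genes and Rps6ka2, which meets the symbol rule but codes for a protein kinase and not a ribosomal protein.

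Each array held RNA of 1 male C57BL/10 ScSn mouse aged 6 to 7 weeks. The 4 groups held 4 mice each: formoterol given once into the peritoneum, at 100 µg/kg in 0.2 mL saline, with muscles taken after 1 h or after 4 h, and saline alone with the same 2 times. The drug reached the whole animal, so the groups model a systemic exposure and not one of the muscle alone. Illumina Sentrix mouse beadchips were used, and the arrays lay on 3 slides: slide 1 carried replicates 1 to 3 of both 4 h groups, slide 2 carried replicate 4 of both 4 h groups and replicates 1 and 2 of both 1 h groups, and slide 3 carried replicates 3 and 4 of both 1 h groups. Values are log2 of the bead intensity after each array was scaled to a common median, and a change is the difference of 2 group means on that scale, formoterol minus saline unless stated, given with the standard error (SE) of the fit. Adjusted p values come from limma over all 7596 kept probes, and a gene was called at an adjusted p under 0.05. No probe comes with a gene name, so each name was inferred from a gene number inside the probe ID.

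The ribosome joins amino acids in the order an mRNA sets. Its large subunit (Rpl proteins) forms the peptide bond, and its small subunit (Rps proteins) reads the codons. Mitochondria carry a ribosome of their own, built from nuclear-encoded Mrpl and Mrps proteins, which makes a handful of respiratory chain proteins. Initiation factors bring the pieces together: eIF4 proteins hold the mRNA cap, eIF2 delivers the initiator tRNA, eIF3 bridges the mRNA and the small subunit, and eIF5 and eIF6 act around the joining of the large subunit. In skeletal muscle, protein synthesis is one of the processes that β2-agonists are known to stimulate, and many cytosolic ribosomal protein mRNAs start with a stretch of pyrimidines through which their translation, rather than their amount, is regulated.

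Of 141 genes that fit the symbol rule and have any probe, 22 had no kept probe, among them Rpl4, Rplp2, Rps18, Rps19, Eif2s1, Eif4a2 and Eif5b, and are not described. The spread among the 4 mice of a group was small for most members, with a median SD of 0.12 on the log2 scale for cytosolic, 0.11 for mitochondrial and 0.12 for Eif genes. In all, 116 of the 119 probes were detected on all 16 arrays. The exceptions were Eif2s3y and Eif3h, on 15 arrays each, and Eif3m, on 7. Eif3m was detected on no array of the formoterol 1 h group, so no change is given for it at 1 h. Because ribosomal protein genes have many processed pseudogenes and the probe sequences were not analysed here, a probe may also read close copies.

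Sequence around the annotated starts is shown here as a description of the classes, and several of the called genes have an entry. RefSeq windows on GRCm38.p6, from 250 bases before to 50 after the start, were matched for 95 of the 119 genes, with 1 start used per gene. A run of at least 8 C or T letters lay within 25 bases of the start in 19 of 45 cytosolic genes (42.2%), 10 of 30 mitochondrial genes (33.3%) and 2 of 19 Eif genes (10.5%), against 19.4% of 27025 promoters. CGGAAG, the core read by ETS family factors, lay on either strand in 35 of the 45 cytosolic genes (77.8%), 21 of the 30 mitochondrial genes (70%) and 10 of the 19 Eif genes (52.6%), against 17.2% of all promoters. The cAMP response element TGACGTCA was in 4 cytosolic windows (8.89%), 1 mitochondrial window (3.33%) and no Eif window, against 1.88% of all promoters. Its shorter core TGACG, which the full element also contains, was in 46.7%, 46.7% and 52.6% of the windows, against 21% of all promoters. CTTCCG, the reverse complement of CGGAAG, can overlap the pyrimidine run. These matches describe letters in a window and not bound sites. The 27025 promoters include those of genes without a kept probe, and no link between a match and a change in signal was tested.
The first 3 of the following lines show cytosolic genes with a pyrimidine run at the start and the last 3 show genes called at 4 h, each from 100 bases before to 20 bases from the start on, 5′ to 3′. Capitals mark the pyrimidine run, where it has at least 8 letters, and CGGAAG or CTTCCG. The cAMP response element is not marked. The printed stretch of Rps9 holds TGACGTCA, and those of Rps6, Mrps18b and Eif4e2 hold the core TGACG.
Rpl7a, chr2:26910707-26910826, plus strand: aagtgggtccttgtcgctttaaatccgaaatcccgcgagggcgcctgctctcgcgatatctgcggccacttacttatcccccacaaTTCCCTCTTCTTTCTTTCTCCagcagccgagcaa
Rps6, chr4:86857348-86857467, minus strand: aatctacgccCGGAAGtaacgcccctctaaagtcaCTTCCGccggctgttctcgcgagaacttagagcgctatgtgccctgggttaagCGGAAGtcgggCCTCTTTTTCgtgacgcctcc
Rps9, chr7:3703941-3704060, plus strand: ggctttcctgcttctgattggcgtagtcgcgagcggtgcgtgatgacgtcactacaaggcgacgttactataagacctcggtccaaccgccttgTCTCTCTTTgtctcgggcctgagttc
Mrps18b, chr17:35916421-35916540, minus strand: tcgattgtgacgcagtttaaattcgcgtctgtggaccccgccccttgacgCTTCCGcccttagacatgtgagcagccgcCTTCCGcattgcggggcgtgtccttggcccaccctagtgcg
Eif4e2, chr1:87213811-87213930, plus strand: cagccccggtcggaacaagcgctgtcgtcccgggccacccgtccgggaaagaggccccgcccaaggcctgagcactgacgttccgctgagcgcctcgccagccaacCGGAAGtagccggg
Eif5, chr12:111538001-111538120, plus strand: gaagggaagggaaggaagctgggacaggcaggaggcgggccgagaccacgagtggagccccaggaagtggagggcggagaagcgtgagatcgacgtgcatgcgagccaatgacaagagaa
The run in Rpl7a is 21 letters long and starts 14 bases before the annotated start, and that in Rps6 is 10 letters long. None of the 3 called genes with an entry holds such a run, while Mrps18b has 2 CTTCCG in the printed stretch, Eif4e2 has 1 CGGAAG and Eif5 has neither.

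Arrays were unequal in ways that touch the results below. Over the kept probes, array medians ran from 392.7 to 746.1, between 2.33 and 3.74 times background. Saline 4 h replicate 2 was the brightest array, and saline 4 h replicate 4 had the lowest ratio to background. In saline 4 h replicate 2, 10 of the 119 members (8.4%) and 300 kept probes (3.95%) read more than 0.5 above every other mouse of the group on the log2 scale. In each of the other 15 arrays this held for none of the members and for at most 0.369% of kept probes. Of 24 skeletal muscle markers 5 were measured (Myh1, Actn3, Eno3, Ryr1 and Casq1), and their summed signal overlapped between all 4 groups. Among markers of other cell types, genes of 4 lists moved with treatment. The 3 measured erythroid genes summed to 25066 to 42900 in formoterol 4 h mice and 6085 to 19957 in saline 4 h mice, and 2 of the 3 rose at 4 h (Hba-a1 and Hbb-b2). The 6 measured fibroblast genes summed to 21682 to 25027 in formoterol 4 h mice and 28099 to 39005 in saline 4 h mice, and 5 of the 6 fell. At 1 h they summed to 19478 to 24206 in formoterol mice and 25838 to 31509 in saline mice, and 2 of the 6 fell. Of 4 measured endothelial genes, Eng rose at 4 h and Emcn fell, and Emcn also differed between the times. Of 2 adipocyte genes, Lpl rose at 4 h. Their part in the results was not tested. In whole muscle, fewer cells of a type and less RNA per cell cannot be told apart.

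At 1 h no member was called in limma, against 2.78% of all kept probes. An unadjusted p under 0.05 was held by 14 members (11.8%), against 14.0% of all kept probes. Cytosolic ribosomal protein genes nevertheless leaned one way: 60 of 62 had a log2 change below 0, with a median of -0.15 and a range of -0.34 to 0.20, whereas 51.7% of all probes were below 0 with a median of -0.00. The lean was alike for the large subunit (35 of 36 genes, median -0.15) and the small subunit (25 of 26 genes, median -0.13). At an unadjusted p under 0.05, 12 cytosolic genes were lower and 1 was higher, while 7.17% of all probes were lower and 6.79% higher at that level. Mitochondrial genes had a median of -0.05, with 24 of 32 below 0, and Eif genes a median of -0.01, with 15 of 24 below 0.

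**Figure D1:**
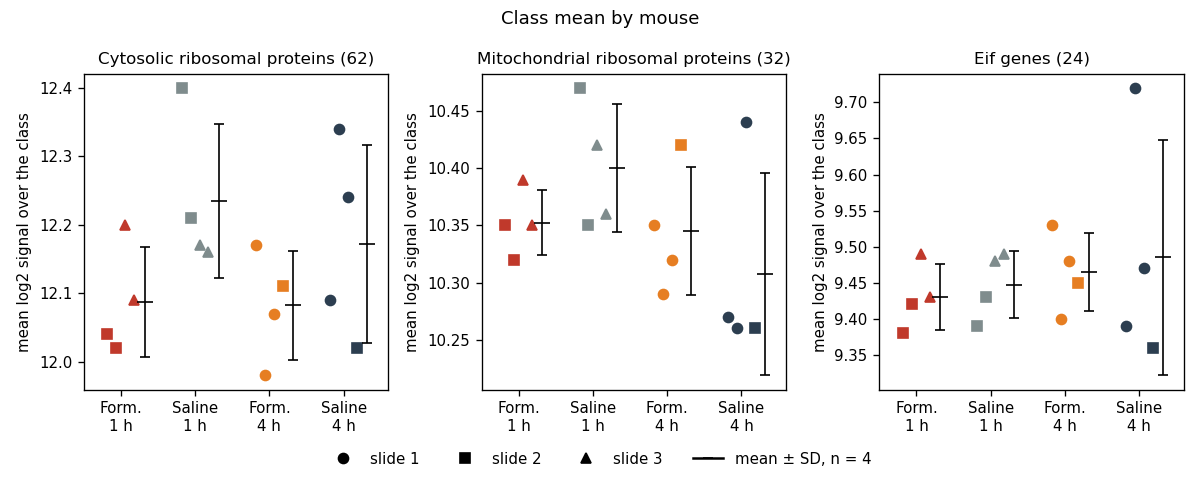
Mean log2 signal over the genes of each class (vertical axes, which differ in range and do not start at 0) for each mouse, by group; symbols give the slide, and bars the mean ± SD of 4 mice. The cytosolic mean was 12.02 to 12.20 in formoterol 1 h mice and 12.16 to 12.40 in saline 1 h mice, and the highest value of the Eif panel, 9.72, belongs to saline 4 h replicate 2.

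Averaged over the 62 genes, the cytosolic level was 12.04, 12.02, 12.20 and 12.09 in formoterol 1 h mice and 12.40, 12.21, 12.17 and 12.16 in saline 1 h mice. The groups overlapped, because formoterol replicate 3 exceeded saline replicates 3 and 4. Saline 1 h replicate 1 stood out, as 58 of the 62 genes had the group's highest value in that mouse. Without it the median change was -0.09. The lean also differed between the slides: on slide 2, with 2 mice a group, 61 of 62 genes were below 0 with a median of -0.28, and on slide 3, again with 2 mice a group, 40 of 62 were below 0 with a median of -0.02. On slide 2 alone 12 members were called, all lower with formoterol (11 cytosolic genes and Eif5a), beside 8.33% of all probes, and on slide 3 alone none was, beside 0.527% of all probes. The difference between the slides was not tested.

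**Figure D2:**
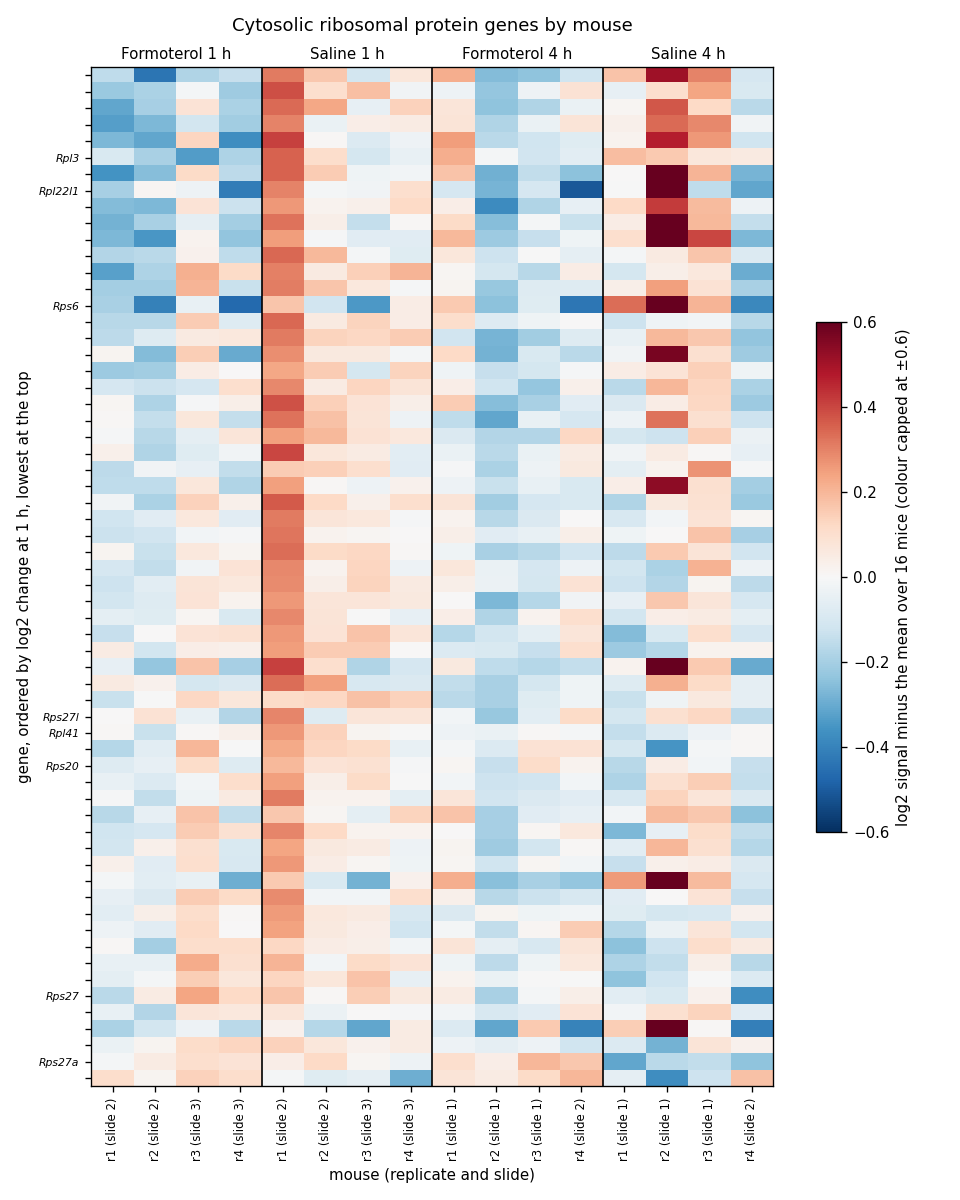
Log2 signal of each of the 62 cytosolic genes (rows, ordered by the change at 1 h) in each mouse (columns) minus the mean of that gene over 16 mice, with names beside the rows of genes picked by the rule for named genes; red is above and blue below that mean, with colours capped at 0.6. Saline 1 h replicate 1 is red in nearly every row, while saline 4 h replicate 2 is strongly red in only part of the rows.

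The lowest changes at 1 h belonged to Rpl32 (-0.34, SE 0.13), Rpl27 (-0.32, SE 0.10), Rpl17 (-0.32, SE 0.11) and Rps23 (-0.32, SE 0.10). Limma gave adjusted p values of 0.217, 0.0977, 0.185 and 0.104 for them. These genes were picked after their values were seen. Rps23, a protein of the decoding centre, had 9.72, 9.78, 9.94 and 9.84 in formoterol 1 h mice and 10.35, 10.01, 10.09 and 10.10 in saline 1 h mice. Those groups did not overlap, which held for 5 of the 62 cytosolic genes (4 lower and 1 higher) and for 8.44% of all kept probes. Rpl3, which lies beside the peptidyl transferase centre, had a change of -0.28 (SE 0.10) with an adjusted p of 0.161. The single positive gene of size was Rpl7l1 (0.20, SE 0.10, adjusted p 0.353), a paralogue of Rpl7 linked to ribosome assembly. The brightest cytosolic probes, Rpl41 and Rps20, had log2 values of 14.12 to 14.28 and 13.90 to 14.09 in formoterol 1 h mice and 14.25 to 14.51 and 13.97 to 14.17 in saline 1 h mice.

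At 4 h 5 members were called, all higher with formoterol: Rps27a, Eif6, Eif5, Mrps18b and Eif4e2. That is 5 of 119 genes where 15.9% of all kept probes were called (8.81% higher and 7.07% lower). The largest of the 5 changes was a factor of 1.31. By class, 1 of 62 cytosolic, 1 of 32 mitochondrial and 3 of 24 Eif genes were called. The cytosolic median was -0.06, with 41 of 62 genes below 0. The mitochondrial median was 0.05, with 21 of 32 above 0, and the Eif median was -0.01, with 12 of 24 on each side. The median of all kept probes was 0.02. The direction of the calls depended on the scaling: with quantile normalization the same 5 genes were called higher and 8 cytosolic genes, such as Rpl39 (-0.36, SE 0.08) and Rps9 (-0.34, SE 0.09), were called lower, beside 19.4% of all probes.

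**Figure D3:**
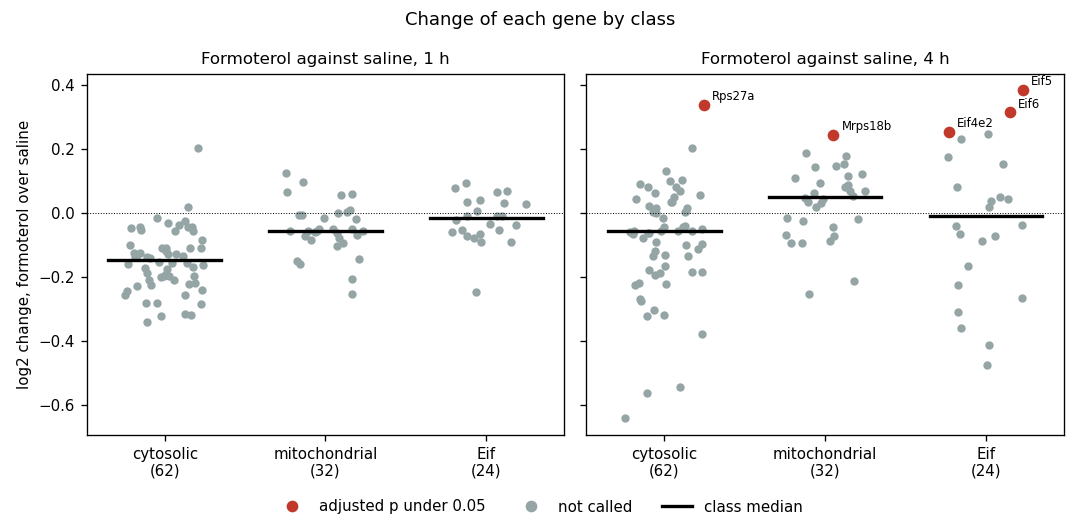
Log2 change with formoterol over saline (vertical axis) of every cytosolic, mitochondrial and Eif gene at 1 h (left) and 4 h (right); red points are called, grey points are not, and black lines are class medians. At 1 h the cytosolic points lie almost entirely below 0 (median -0.15) with none called, and at 4 h the 5 called genes lie above 0.

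Rps27a encodes a fusion of ubiquitin with a small-subunit protein, so it supplies ubiquitin as well as ribosomes. Its log2 values were 13.64, 13.58, 13.74 and 13.70 in formoterol 4 h mice and 13.23, 13.38, 13.39 and 13.30 in saline 4 h mice. Every formoterol mouse lay above every saline mouse, and the change was 0.34 (SE 0.06), a factor of 1.26, with an adjusted p of 0.00111 in limma. Its size depended on the scaling: it was 0.17 (SE 0.06) with quantile normalization, still called, and 0.16 (SE 0.07, adjusted p 0.108) with normexp, where the call was lost. At 1 h it averaged 13.60 ± 0.05 in formoterol mice and 13.58 ± 0.06 in saline mice (SD, n = 4 each). The saline 4 h mice were thus the group that stood apart, with a mean of 13.33 ± 0.08. Between saline groups the change, 4 h over 1 h, was -0.25 (SE 0.06), which did not pass the test (adjusted p 0.124). The neighbouring symbols Rps27 and Rps27l, which code for a zinc-binding small-subunit protein and its paralogue, were not called at 4 h.

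Eif6 binds the free large subunit and keeps it from joining the small one too early, and it is also needed to build that subunit. It had 9.88, 9.85, 9.88 and 9.91 in formoterol 4 h mice and 9.52, 9.55, 9.66 and 9.54 in saline 4 h mice. The groups were well apart, with a change of 0.32 (SE 0.065) and an adjusted p of 0.00227. At 1 h the values were 9.72, 9.59, 9.75 and 9.85 with formoterol and 9.73, 9.76, 9.80 and 9.87 with saline, a change of -0.06 (SE 0.065). Eif6 was the only member whose response differed between the times, by 0.38 (SE 0.09, adjusted p 0.0243), where 3.52% of all kept probes were called. That call was lost without any one of 6 mice, with adjusted p values of 0.0504 to 0.0622: replicates 1 and 2 of formoterol 1 h, replicate 4 of saline 1 h, replicates 3 and 4 of formoterol 4 h and replicate 1 of saline 4 h.

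Eif5 makes eIF2 hydrolyse its GTP once the start codon is found. Its values were 9.73, 9.70, 9.68 and 9.72 in formoterol 4 h mice and 9.43, 9.39, 9.26 and 9.21 in saline 4 h mice. The formoterol values fell within a very narrow band above all saline values, and the change was 0.39 (SE 0.10, adjusted p 0.0112). In the 1 h groups it varied far more, at 9.37, 9.44, 9.69 and 9.45 with formoterol and 9.25, 9.39, 9.75 and 9.64 with saline, and these overlapped.

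Eif4e2 is a relative of the cap-binding factor eIF4E that is known mainly for repressing translation. It had 10.38, 10.23, 10.29 and 10.35 in formoterol 4 h mice and 9.99, 10.05, 10.10 and 10.10 in saline 4 h mice, a change of 0.25 (SE 0.08, adjusted p 0.0297). The groups did not overlap, but this was the least stable of the 5 calls: it was lost without replicate 1, 3 or 4 of formoterol 4 h or replicate 1 or 2 of saline 4 h, with adjusted p values of 0.0561 to 0.0862. Eif4e itself, the main cap-binding factor, had a change of -0.04 (SE 0.08), and Eif4e3, a further relative, one of -0.06 (SE 0.08), with 0.18 (SE 0.10) from its other kept probe. Neither gene was called.

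Mrps18b codes for a protein of the small mitochondrial subunit. Its values were 9.14, 9.17, 9.15 and 9.17 in formoterol 4 h mice and 8.88, 8.84, 8.92 and 9.0 in saline 4 h mice, again without overlap. The change was 0.24 (SE 0.06, adjusted p 0.0124). No other mitochondrial ribosomal gene was called, and the next highest was Mrpl23 (0.19, SE 0.08, adjusted p 0.116), chosen after its value was seen. Mrps21 and Mrpl51, the brightest mitochondrial probes, had 12.09 to 12.35 and 12.34 to 12.55 in formoterol 4 h mice and 11.88 to 12.27 and 12.06 to 12.52 in saline 4 h mice.

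**Figure D4:**
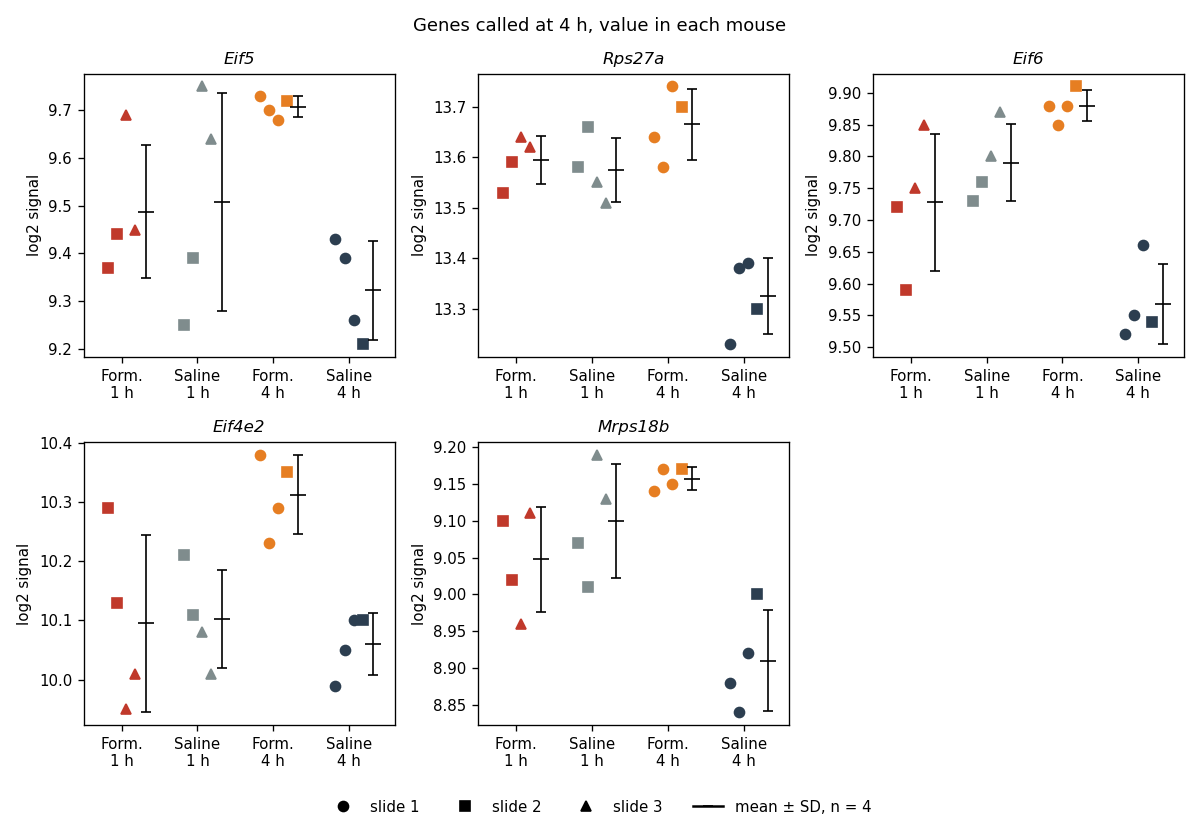
Log2 signal (vertical axes, which differ in range and do not start at 0) of the 5 genes called at 4 h in each mouse, by group; symbols give the slide, and bars the mean ± SD of 4 mice. In each panel the 4 formoterol 4 h mice lie above the 4 saline 4 h mice, and for Rps27a the saline 4 h mice also lie below all 1 h mice, which averaged 13.60 with formoterol and 13.58 with saline.

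The sizes of the 5 changes were also taken within each slide that holds 4 h arrays, where their sign follows from the groups not overlapping. On slide 1, with 3 mice a group, the changes were 0.32 for Rps27a, 0.30 for Eif6, 0.35 for Eif5, 0.27 for Mrps18b and 0.25 for Eif4e2, and the calls of Rps27a (adjusted p 0.0511), Mrps18b (0.059) and Eif4e2 (0.0927) were lost. On slide 2, with 1 mouse a group and so no test, they were 0.40, 0.37, 0.51, 0.17 and 0.25. The summed erythroid signal given above was higher in formoterol 4 h mice too, and its part in the 5 calls was not tested. Across the members, 7 genes had groups at 4 h that did not overlap, all higher with formoterol, beside 10.5% of all kept probes: the 5 called genes, Eif2ak1 and Eif2s2.

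Of the eIF2 group, Eif2ak1 is a kinase that shuts initiation down when haem is short and is known from red cell precursors. It had 9.35, 9.32, 9.42 and 9.31 in formoterol 4 h mice and 9.11, 8.89, 9.12 and 9.30 in saline 4 h mice. The change of 0.25 (SE 0.085) just missed the threshold, with an adjusted p of 0.0549, and passed it with slide as a fixed block (0.0478), slide as a random block (0.048) or array weights (0.0104), and without saline 4 h replicate 4 (0.0137) or formoterol 1 h replicate 4 (0.0426). Eif2s2, the beta subunit of eIF2, had a change of 0.18 (SE 0.09, adjusted p 0.19). Eif2s3y, the Y-linked gamma subunit, ranged widely at 4 h, from 8.08 to 9.84 with formoterol and from 8.60 to 10.57 with saline.

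None of the 6 measured eIF3 subunits was called at 4 h, where 15.9% of all kept probes were called. Eif3a, which forms the scaffold, had a change of 0.05 (SE 0.12), Eif3c one of 0.04 (SE 0.08), with -0.075 from its other kept probe, and Eif3h one of -0.04 (SE 0.09). Eif3e (-0.31, SE 0.15, adjusted p 0.175) and Eif3m (-0.47, SE 0.21, adjusted p 0.135) were lower in the mean, and both read high in saline 4 h replicate 2. Without that mouse their changes were -0.09 and -0.13. Eif3m was detected on only 1 formoterol 4 h array, so its changes at 4 h rest on values near the detection limit. Eif3j1, the sixth, is described with that mouse further on.

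Of the cap complex, the helicase Eif4a1 had a change of 0.08 (SE 0.09) at 4 h and its partner Eif4b one of -0.17 (SE 0.10). The scaffold Eif4g3 had one of -0.09 (SE 0.09). Eif4a3, a related helicase that is not part of the cap complex, had one of 0.16 (SE 0.10). Eif4ebp2, which binds and blocks eIF4E, had one of 0.23 (SE 0.12, adjusted p 0.203). Eif1, which guards the choice of start codon, had 12.85, 12.56, 12.67 and 12.62 in formoterol 4 h mice and 12.67, 12.98, 12.68 and 12.29 in saline 4 h mice, with overlap. Eif5a, which helps the ribosome through difficult stretches, had changes of -0.25 (SE 0.12, adjusted p 0.371) at 1 h and -0.26 (SE 0.12, adjusted p 0.145) at 4 h. Its other kept probe gave -0.25 (SE 0.07) at 1 h and -0.05 (SE 0.07) at 4 h, and neither value was called. None of these genes was called at either time, where 2.78% of all kept probes were called at 1 h and 15.9% at 4 h. Rps6ka2 had changes of 0.10 (SE 0.09) at 1 h and -0.03 (SE 0.09) at 4 h.

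The lowest changes at 4 h were those of Rps6 (-0.64, SE 0.30), a protein phosphorylated downstream of mTOR, and Rpl22l1 (-0.56, SE 0.29), the paralogue of Rpl22. Rps6 had 9.99, 9.59, 9.76 and 9.40 in formoterol 4 h mice and 10.17, 11.64, 10.04 and 9.45 in saline 4 h mice. Rpl22l1 had 9.0, 8.82, 9.0 and 8.59 in formoterol 4 h mice and 9.10, 10.83, 8.95 and 8.79 in saline 4 h mice. Both means turned on saline 4 h replicate 2, and neither gene was called (adjusted p 0.147 and 0.202). Without that mouse the changes were -0.20 and -0.09. Rps6 was called lower with array weights (-0.49, adjusted p 0.0353) and without saline 4 h replicate 4 (-0.93, adjusted p 0.0197). Both of these fits keep saline 4 h replicate 2.

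**Figure D5:**
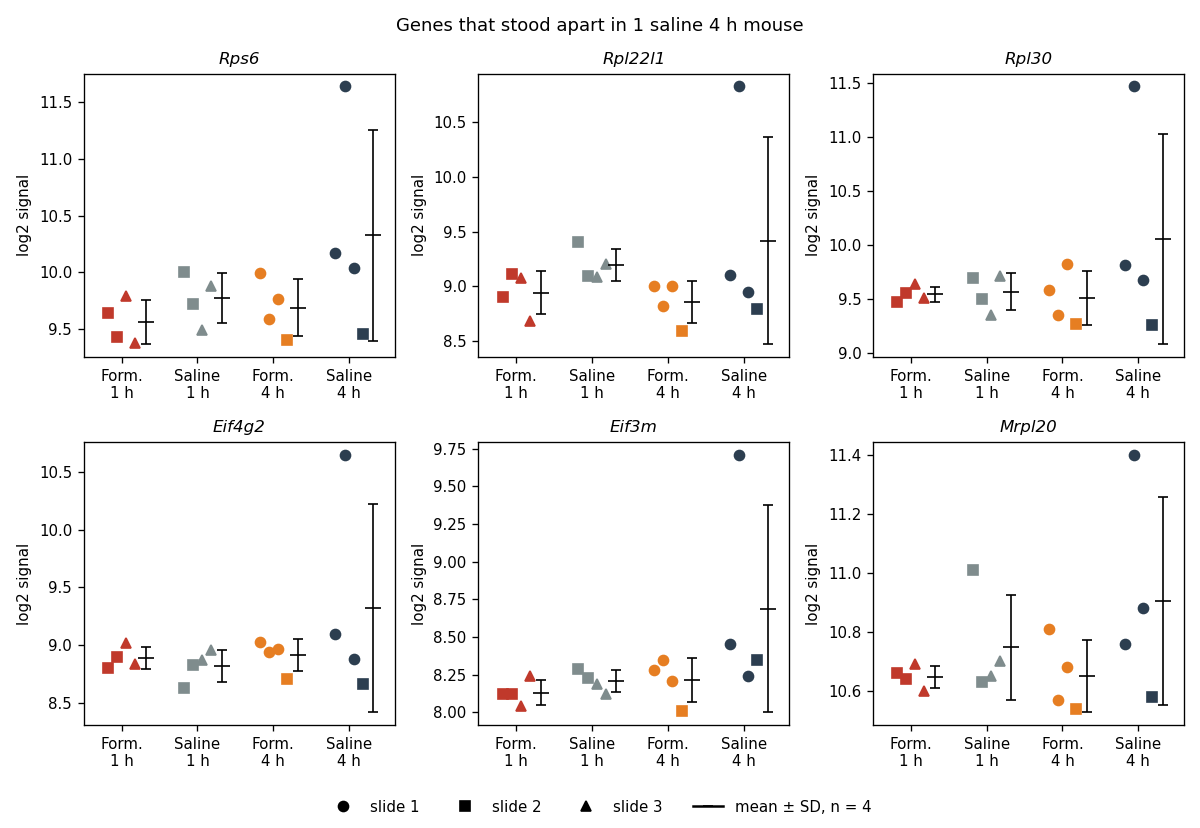
Log2 signal (vertical axes, which differ in range and do not start at 0) in each mouse of 6 of the 10 genes that read more than 0.5 higher in saline 4 h replicate 2 than in the rest of its group; symbols give the slide, and bars the mean ± SD of 4 mice. One saline 4 h mouse stands apart in each panel, at 11.64 for Rps6 and 10.83 for Rpl22l1, while formoterol mice overlap the other saline mice.

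The 10 genes that stood apart in this mouse came from every class, among them Rps6, Rpl22l1 and Rpl30 of the cytosolic ribosome, Mrpl20 of the mitochondrial one, and Eif2s3y, Eif3e, Eif3j1, Eif3m and Eif4g2. Rpl30 had 11.47 in this mouse and 9.26 to 9.82 in the other saline 4 h mice. Eif4g2, which drives initiation without the cap-binding factor, had 10.65 and 8.66 to 9.10. None of the 10 was called at 4 h, and without this mouse their changes ran from -0.20 to 0.03, with adjusted p values of 0.363 to 0.988. The class medians at 4 h without it were -0.05 for cytosolic, 0.02 for mitochondrial and 0.03 for Eif genes. Without saline 4 h replicate 4, 18 members were called at 4 h (8 higher and 10 lower), beside 23.4% of all kept probes. The 5 called genes were among them, and 7 of the 10 lower ones were cytosolic, such as Rps9 (-0.39, SE 0.11) and Rpl6 (-0.50, SE 0.14). That fit keeps saline 4 h replicate 2. The lower genes include Rps6 (-0.93), Rpl30 (-0.81) and Mrpl20 (-0.36), which stood apart in replicate 2. Rps9 and Rpl6 also had their highest saline 4 h values in replicate 2.

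Rps9, a small-subunit protein at the mRNA entry, was the closest of the lower genes with all mice kept, at -0.32 (SE 0.11, adjusted p 0.0505), and it was called lower with slide as a fixed block (-0.32, adjusted p 0.048) and with array weights (-0.30, adjusted p 0.0137). With slide as a fixed block 8 members were called in all, 6 higher and 2 lower (Rps9 and Rpl6), beside 19.7% of all kept probes. It had 12.33, 11.91, 12.11 and 12.24 in formoterol 4 h mice and 12.41, 12.71, 12.48 and 12.26 in saline 4 h mice, so the groups overlapped. Its other kept probe went the opposite way, at 0.20 (SE 0.10, adjusted p 0.167). Rpl27a and Rps3 also have a further kept probe each, and none of these was called at 4 h.

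Over time in saline mice, no member was called, nor was more than 0.145% of all kept probes. Cytosolic genes had a median of -0.10 (4 h over 1 h), with 45 of 62 below 0, mitochondrial genes one of -0.09, with 26 of 32 below 0, and Eif genes one of 0.01. At an unadjusted p under 0.05, 16 cytosolic and 8 mitochondrial genes were lower, as were 8.18% of all probes. Mrpl23, of the large mitochondrial subunit, came closest: it had 11.67, 11.72, 11.74 and 11.89 in saline 4 h mice and 12.11, 12.11, 12.12 and 12.06 in saline 1 h mice, a change of -0.35 (SE 0.08, adjusted p 0.0899). The groups did not overlap for this gene. The times lay largely on different slides, so time and slide can be separated only through slide 2.

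In formoterol mice no member was called between 4 h and 1 h either, where 5.61% of all kept probes were. The medians were -0.01 for cytosolic, -0.00 for mitochondrial and 0.05 for Eif genes. These comparisons share their mice with those against saline. For the 5 genes called at 4 h, the change from 1 h in formoterol mice was 0.07 for Rps27a, 0.16 for Eif6, 0.22 for Eif5, 0.11 for Mrps18b and 0.22 for Eif4e2. The change from 1 h in saline mice was -0.25, -0.22, -0.18, -0.19 and -0.04. The change over time was thus larger in size in the saline mice for Rps27a, Eif6 and Mrps18b. For Eif5 and Eif4e2 it was larger in the formoterol mice. The times lay largely on different slides, so these changes mix time with slide.

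Genes that act beside the members in translation gave more calls in places. Of 24 measured genes of ribosome assembly, 5 rose at 4 h and none fell, with a list median of 0.14, against 8.81% of all kept probes higher and a median of 0.02. Fbl, the methyltransferase of ribosomal RNA, rose by 0.33 (SE 0.08, adjusted p 0.00888), Nop58 of the same particle by 0.36 (SE 0.11, adjusted p 0.0293) and Wdr43 of the small-subunit processome by 0.26 (SE 0.07, adjusted p 0.0173). Of 9 aminoacyl-tRNA synthetase genes, 2 rose at 4 h: Aars (alanine), at 10.34 to 10.53 in formoterol mice and 9.96 to 10.09 in saline mice (a change of 0.41, SE 0.10, adjusted p 0.0083), and Sars (serine), by 0.31 (SE 0.09, adjusted p 0.0219). Of these calls, Nop58, Wdr43 and Sars were lost without replicate 2 of formoterol 4 h (adjusted p 0.0828, 0.0671 and 0.0542) or replicate 2 of saline 4 h (0.0662, 0.0508 and 0.0767). Nop58 and Sars were also lost without replicate 1 of saline 4 h (0.0789 and 0.05), and Nop58 without replicate 4 of formoterol 4 h (0.0954). Without the filter on dim probes each of these named calls was lost, with Fbl at 0.0668 and Aars at 0.114. By the methods' t-test the calls of Nop58 (0.0859), Wdr43 (0.0868), Sars (0.166) and Fbl (0.0724) were lost. The same calls were lost without the 3 arrays of extreme median signal (0.136, 0.299, 0.211 and 0.087). Of 9 elongation and termination factors none was called against saline at either time, beside 2.78% of all kept probes at 1 h and 15.9% at 4 h. In formoterol mice at 4 h against 1 h only Eef1d was called, beside 5.61% of all kept probes. Eef1d, part of the exchange factor of eEF1A, rose by 0.23 (SE 0.07, adjusted p 0.0485). That call was lost under 23 of 31 alternatives, among them the omission of any mouse of either formoterol group.

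Mknk2, which phosphorylates eIF4E, rose at 4 h by 0.90 (SE 0.15, adjusted p 0.000368), with 11.95 to 12.38 in formoterol mice and 11.08 to 11.37 in saline mice. It was the only gene called of 10 cap and tail partners at 4 h, where 15.9% of all kept probes were called. Impact, an inhibitor of the eIF2 kinase Gcn2, rose by 1.03 (SE 0.16, adjusted p 0.00053) at 1 h and by 2.23 (SE 0.16, adjusted p 1.33e-08) at 4 h, where it had 10.44 to 11.01 in formoterol mice and 8.28 to 8.62 in saline mice. Its response differed between the times by 1.20 (SE 0.22, adjusted p 0.00327). The call at 1 h was lost on slide 3 alone (0.82, adjusted p 0.377), by the methods' t-test (0.208) and without the filter on dim probes (0.0503). The difference between the times was 0.65 on slide 2 alone (adjusted p 0.0874) and 0.96 without the 3 arrays of extreme median signal (0.055), and its call was lost there and without the filter (0.134). Of 15 genes of this list only Impact and Hspa5 were measured, and Hspa5 was not called. Of 10 mTOR pathway genes, Pik3r1, a regulatory subunit of PI3-kinase, fell at 1 h by 0.44 on the log2 scale (SE 0.11, adjusted p 0.0329), beside 0.908% of all kept probes that fell. The call was lost without replicate 1, 3 or 4 of formoterol 1 h (0.101, 0.0726 and 0.0984) or replicate 1, 2 or 4 of saline 1 h (0.0746, 0.14 and 0.0769). None of the 10 was called at 4 h.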

How the data were processed

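RNA of 16 muscles was hybridised to 16 arrays. The deposited intensity is the authors' average bead signal per probe without normalization, read in BeadStudio 1.5.1.3 per the labels. The authors also deposited a detection score for every probe and, as an alternative used here, a ratio: intensity over the array's own median. Probes scored 1 on at least 4 arrays (7596 of 46120) were kept, scaled to the mean of the array medians (523.5), raised to a floor of 257.5 (percentile 1) and taken as log2. In limma 3.58.1 under R 4.3.3, lmFit and eBayes gave the group means of all 16 arrays, with 12 residual degrees of freedom and 5.97 from the prior. Benjamini-Hochberg adjustment ran over the 7596 probes. A probe was detected at a score of at least 0.99. An exact two-sided permutation test of 1 gene in 4 mice against 4 has a smallest p of 0.029. No depth exists for arrays, and their number limits the precision.

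Of the kept probes 2584 (34.0%) could be named, through gene numbers of a GRCm38.p6 table. The members, the gene lists and the rule for naming genes were chosen with earlier results of these data known. Named were called members (up to 6 each way per comparison), the 2 brightest genes and the 2 with the largest change at 4 h of each class, a fixed set by role, and up to 3 called genes of each other list; others are marked as chosen afterwards. Alternatives covered normalization (quantile, normexp, the authors' ratio), an offset of 50, no filter, the methods' t-test, arrays of the comparison only, trend and robust fits, array weights, slide and replicate blocks, each slide alone, each array left out, the probe of largest change and an adjusted p under 0.01. On simulated log2 values for the 1 h comparison (7596 probes) the fit found 94.5% of 200 changes of 1.5-fold and called 12 unchanged probes. The simulated noise was independent for each probe, without array or slide effects. A change of 1.5-fold is also larger than that of any member called with all mice kept. So this check gives no detection rate for changes of the members' size. Tables were handled in Python 3.11.15 with pandas 2.3.3. One member's own values are not reported here.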

Additional observations from a re-analysis of the deposited data

Results flagged for a closer look

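Eif6 was flagged because its response to formoterol differed between the times, by 0.38 on the log2 scale in limma (adjusted p 0.0243), with higher values at 4 h in 4 of 4 formoterol mice than in any saline 4 h mouse.

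In 144 groups of 4 mice (33 named genes and 3 class means), 1 mouse lay far from the other 3 in 12 cases, where chance flags about 1 group in 20. Saline 4 h replicate 2 accounted for 3 of them: Rpl22l1 read 10.83 there and 8.79 to 9.10 in the other mice, Eif3m 9.71 and 8.24 to 8.45, and Eif4b 9.11 and 8.68 to 8.74. Saline 4 h replicate 3 had the highest mitochondrial class mean, 10.44, with 10.26 to 10.27 in the others. In the formoterol 1 h group, Eif2ak1 read 9.53 in replicate 4 and 9.26 to 9.29 in the others, Eif2s2 9.92 in replicate 1 and 10.14 to 10.17, Eif3c 9.07 in replicate 3 and 8.77 to 8.80, Eif4b 8.93 in replicate 3 and 8.59 to 8.65, Rps20 14.09 in replicate 3 and 13.90 to 13.93, Mrps21 12.18 in replicate 2 and 12.29 to 12.30, and Rpl41 14.12 in replicate 2 and 14.26 to 14.28. Eif4a3 read 8.52 in saline 1 h replicate 4 and 8.68 to 8.70 in the others.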

How the results depend on the processing

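The count of members called at 4 h was 5 and became 13 with quantile normalization, 11 with normexp, 11 with array weights, 8 with slide as a fixed block, 3 without the filter, 3 by the methods' t-test, 2 on slide 1 alone, 2 without the 3 arrays of extreme median signal (added after seeing the data) and 2 at an adjusted p under 0.01. It was 4 to 18 with 1 array left out. Rps27a lost its call with normexp (adjusted p 0.108) and on slide 1 alone (0.0511), Eif5 without the filter (0.135), by the methods' t-test (0.0632) and without the 3 arrays (0.0721), and Mrps18b by the methods' t-test (0.0686), on slide 1 alone (0.059) and without the 3 arrays (0.147). Eif4e2 also lost it without the filter (0.149), on slide 1 alone (0.0927) and without the 3 arrays (0.0888). Eif6 at 4 h kept its call under every alternative run.

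At 1 h the count was 0 and became 1 with quantile normalization (Rps23), 1 with normexp (Rps23) and 12 on slide 2 alone; it was 0 with any 1 array left out. For the difference between times the count was 1 and became 2 with the offset, 2 with slide as a fixed block, 2 with signal over background as a covariate (added after seeing the data), 3 with array weights, and 0 without the filter, on slide 2 alone, without the 3 arrays or at an adjusted p under 0.01; it was 0 to 2 with 1 array left out. Between saline groups the count was 0 and became 8 with array weights, and was 0 to 1 with 1 array left out. Between formoterol groups it was 0 and became 1 with quantile normalization, arrays of the comparison only, array weights, without the 3 arrays or with the covariate, and was 0 to 1 with 1 array left out.

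Samples with the same replicate number did not deviate together (correlations from -0.249 to 0.298), so the numbers were not taken to pair mice; with the replicate block 1 member was called at 1 h (Rpl3, lower) and 5 at 4 h, and the other 3 counts stayed at 1, 0 and 0.

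Class medians moved by more than the spread between mice mainly on single slides. The cytosolic median at 1 h was -0.280 on slide 2 and -0.023 on slide 3; on slide 2 it was 0.081 at 4 h, 0.380 for the difference between times and -0.302 between saline groups. The mitochondrial median at 4 h was -0.013 on slide 1 and 0.161 on slide 2, and on slide 2 it was 0.197 for the difference, -0.180 between saline groups and 0.084 between formoterol groups. The Eif median at 4 h was 0.101 on slide 2, and for the difference it was 0.101 without the 3 arrays and 0.097 with the probe of largest change. With 1 array left out the mitochondrial median for the difference was 0.048 to 0.126. The cause of these shifts was not tested.

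Signal over background of 2.33 to 3.74 limits what dim probes can show. A further limit is that 22 genes had no kept probe.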
